A study of Mus musculus with 8 samples.

Results

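The genes described here encode receptors on the surface of the platelet and of the megakaryocyte that sheds it. The group was a list of 8 genes (Gp1ba, Gp5, Gp6, Gp9, Itga2b, Itgb3, Clec1b and Treml1), and a probe set was used when the array annotation assigned it to 1 of these genes alone. By this rule 7 of the 8 genes had 8 of the 45101 probe sets, Itgb3 having 2 and the others 1 each. No probe set was assigned to Gp1ba, which was not analysed here. All 7 passed the filter on low values and were among the 13136 genes tested.

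Platelet receptors work in a sequence at the injured vessel wall. The GPIb-IX-V complex, built from the products of Gp1ba, Gp1bb, Gp9 and Gp5, catches von Willebrand factor and slows the platelet. GPVI, the product of Gp6, then binds collagen and signals through an Fc receptor chain to the kinase Syk. CLEC-2, the podoplanin receptor encoded by Clec1b, also signals through Syk. These signals switch the integrin alphaIIb-beta3, the pair encoded by Itga2b and Itgb3, to the form that binds fibrinogen and joins platelets to one another. Treml1 encodes a receptor of the alpha granule membrane that reaches the surface on activation. In hematopoietic tissue most of these transcripts mark megakaryocytes, although Itga2b is also known in early progenitors and mast cells, Itgb3 in osteoclasts and Clec1b in some myeloid and endothelial cells.

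The study asked how loss of Col18a1, the gene of collagen XVIII, altered blood-forming tissue. Bone marrow suspensions came from flushed femurs and tibias of 3-month-old males, and fetal liver suspensions from embryos at day 14.5 described as of undetermined sex. In each tissue, mice of the C57B6/J strain were either Col18a1+/+ (wild-type) or Col18a1-/- (knockout), with 2 arrays per group and RNA of 2 littermates pooled on each array, 8 arrays in all. The design text calls the wild-type mice littermates of the knockouts, whereas the husbandry text names separate lines of each genotype, so differences between lines and between genotypes cannot be told apart from the labels. These are unsorted mixtures, so fewer megakaryocytes and less receptor RNA per megakaryocyte cannot be told apart. Values are log2 intensities, in which a step of 1 is a doubling, and the 8 arrays had median intensities of 40.8 to 42.6. Precision is limited by having 2 arrays a group, and p-values measure only the spread between these pools. Col18a1 itself was lower in knockout arrays, by 2.03 in bone marrow and by 1.003 in fetal liver on its brighter probe set. Its other probe set differed by -1.34 in bone marrow and by -1.62 in fetal liver, so the order of the tissues was reversed.

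The tissues matched their labels. The summed intensity of 8 hepatoblast markers was 242 to 284 on the bone marrow arrays and 78680 to 84050 on the fetal liver arrays. Neutrophil markers, 10 genes, summed to 139800 to 143000 in bone marrow and 10970 to 15170 in fetal liver. In fetal liver the female-specific RNA Xist gave 11.04 and 11.22 in wild-type against 4.97 and 4.77 in knockout. The Y-linked gene Eif2s3y gave 3.29 and 3.00 in wild-type against 9.38 and 9.42 in knockout. The wild-type pools thus read as female and the knockout pools as male. Genotype and sex cannot be told apart there for any gene.

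The promoters of the receptor genes called lower in knockout bone marrow are shown as a description, and whether those genes are regulated together was not tested. Shown are the 250 bases before the annotated start (RefSeq, GRCm38.p6), written 5′ to 3′ along the gene, and 7 of the 8 genes had an entry in the promoter table, Itgb3 being the exception. Capitals mark the letters GATAA (the core of the GATA factor motif), GGAAG (ETS factors), TGTGGT (RUNX factors) and TGAGTCA (the NF-E2 core), on either strand.
Gp5, chr16:30310782-30311031, minus strand: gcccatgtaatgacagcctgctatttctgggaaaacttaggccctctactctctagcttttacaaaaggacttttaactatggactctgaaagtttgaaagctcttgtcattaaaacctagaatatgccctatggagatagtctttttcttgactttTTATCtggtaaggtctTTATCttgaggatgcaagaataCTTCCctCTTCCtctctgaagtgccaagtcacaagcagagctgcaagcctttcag
Itga2b, chr11:102469884-102470133, minus strand: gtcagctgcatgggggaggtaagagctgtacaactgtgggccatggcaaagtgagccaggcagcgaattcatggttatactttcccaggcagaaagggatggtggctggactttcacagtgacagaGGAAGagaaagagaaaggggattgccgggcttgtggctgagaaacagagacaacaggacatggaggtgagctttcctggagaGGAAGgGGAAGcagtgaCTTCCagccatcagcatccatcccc
Clec1b, chr6:129397047-129397296, plus strand: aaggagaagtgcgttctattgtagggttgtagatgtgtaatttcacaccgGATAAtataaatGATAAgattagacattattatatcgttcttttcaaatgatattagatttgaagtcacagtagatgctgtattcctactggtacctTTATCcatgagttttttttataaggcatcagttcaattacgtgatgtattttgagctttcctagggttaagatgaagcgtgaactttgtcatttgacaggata
Treml1, chr17:48359666-48359915, plus strand: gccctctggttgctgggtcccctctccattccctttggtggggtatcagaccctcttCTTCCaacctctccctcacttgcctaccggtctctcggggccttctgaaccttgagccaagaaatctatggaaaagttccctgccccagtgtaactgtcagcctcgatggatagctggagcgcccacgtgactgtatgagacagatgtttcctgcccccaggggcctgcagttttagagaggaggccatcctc

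The stretches differ in which letters they hold. GATAA occurred in 5 of the 7 promoters of the listed genes, those of Gp1ba, Gp5, Gp6, Gp9 and Clec1b, and in 22.6% of all 32851 promoter stretches of this length. GGAAG occurred in 5 of the 7, those of Gp1ba, Gp5, Gp9, Itga2b and Treml1, and in 64.1% of all. TGTGGT was found upstream of Gp9 alone (14% of all) and TGAGTCA upstream of none of the 7 (4.46% of all). Clec1b held GATAA 3 times, with first bases 200, 188 and 103 bases before the start, and no GGAAG. Itga2b held GGAAG 4 times, beginning 124, 42, 36 and 25 bases before the start, and no GATAA. Gp5 held 2 of each between 93 and 44 bases before the start. A match of letters is a description and shows no binding.

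The first comparison set knockout against wild-type bone marrow. Every receptor gene measured was lower on both knockout arrays than on both wild-type arrays, and 5 of the 7 fell past the threshold (adjusted p under 0.05 over the 13136 genes tested, limma): Gp5, Itga2b, Itgb3, Clec1b and Treml1. Over all genes tested, 0.365% were called lower in this comparison, and 19.3% had both knockout arrays below both wild-type arrays. The median difference of the 7 genes was -1.12, and that of all genes 0.014. The list was drawn up with such results known, so these counts describe its genes and are not independent evidence of their direction.

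**Figure D1:**
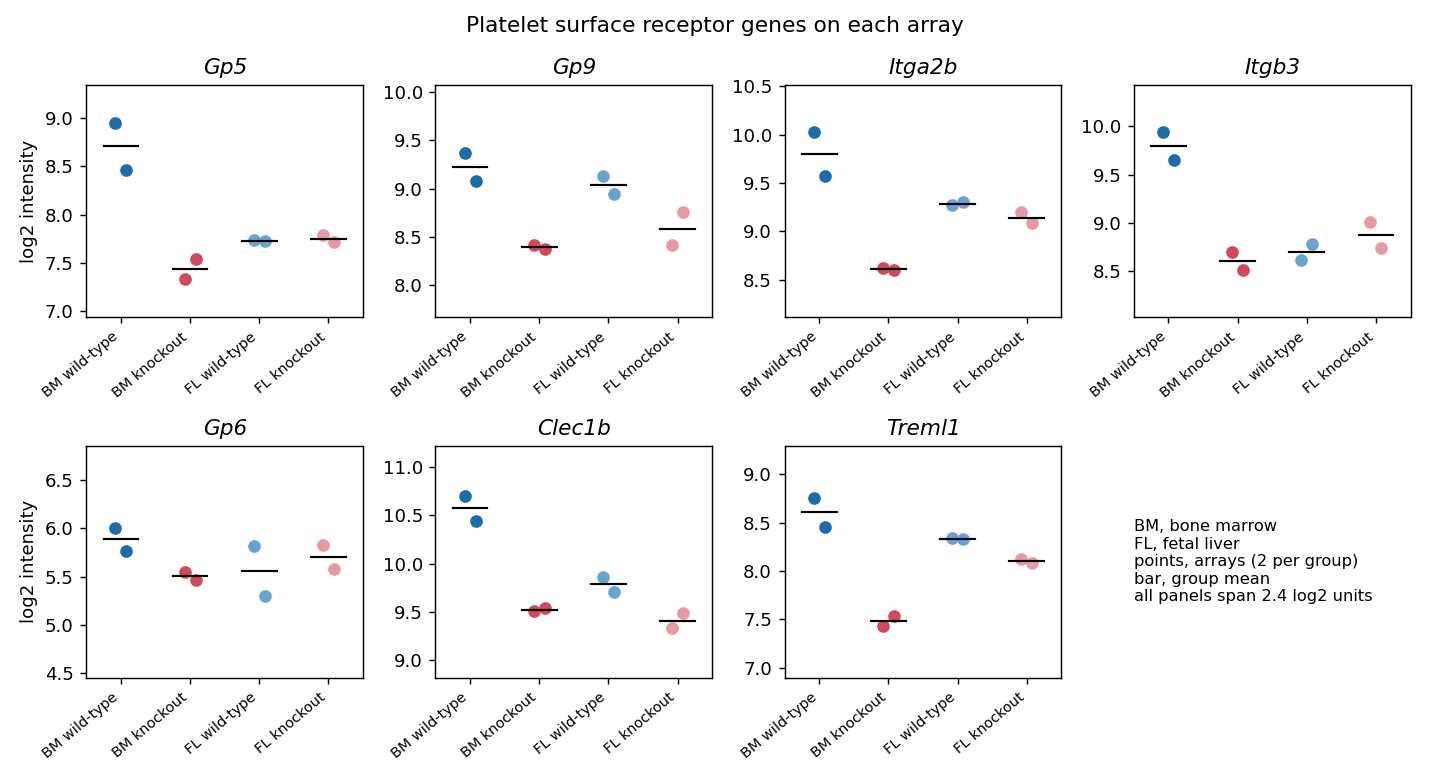
Log2 intensity (y axis) of each of the 7 measured receptor genes on each of the 8 arrays, by group (x axis), with 1 panel per gene, points for arrays and bars for the means of 2 arrays. In every panel the knockout bone marrow points lie below the wild-type bone marrow points, while in fetal liver the genotypes lie closer together and overlap for Gp5, Gp6 and Itgb3.

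Within the von Willebrand factor receptor, Gp5 encodes glycoprotein V. Gp5 stood at 8.95 and 8.46 in wild-type and at 7.33 and 7.54 in knockout bone marrow. Its lower wild-type array was 0.92 above its higher knockout array. Gp5 fell by 1.27 ± 0.15 (SE; adjusted p = 0.013, limma), from a mean of 8.71 ± 0.34 (SD, n = 2) to 7.44 ± 0.15, a level 2.41-fold lower. Gp9 encodes glycoprotein IX, the small subunit that the complex needs to reach the surface. Gp9 stood at 9.37 and 9.07 in wild-type and at 8.42 and 8.38 in knockout bone marrow. The groups did not overlap, but the difference of -0.82 ± 0.14 missed the threshold (adjusted p = 0.0644, limma). Over the other settings tried its adjusted p ran from 0.0088 to 0.489 (limma), passing with a filter at 6, with array weights and with a variance trend and robust moderation.

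The integrin subunit genes fell by nearly equal amounts. Itga2b, the gene of the alphaIIb chain (CD41), stood at 10.03 and 9.57 in wild-type and at 8.62 and 8.60 in knockout bone marrow. It fell by 1.19 ± 0.14 (adjusted p = 0.0126, limma), 2.29-fold. Itgb3, the gene of the beta3 chain (CD61), stood at 9.94 and 9.65 in wild-type and at 8.70 and 8.51 in knockout bone marrow on its brighter probe set, and fell by 1.19 ± 0.14 (adjusted p = 0.012, limma), also 2.29-fold. The knockout arrays lay 0.95 or more below the nearest wild-type array for both chains. The dimmer Itgb3 probe set gave 5.61 and 5.55 in wild-type and 5.33 and 5.39 in knockout bone marrow, a difference of -0.22 (adjusted p = 1, limma over all 45101 probe sets, of which 0.0976% were called lower). The 2 Itgb3 probe sets thus disagreed in size, and the mean of both missed the threshold (-0.71, adjusted p = 0.075, limma, where the other settings tried gave 0.000531 to 0.132).

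Of the receptors that signal through Syk, 1 passed. Clec1b, the CLEC-2 gene, stood at 10.70 and 10.44 in wild-type and at 9.51 and 9.54 in knockout bone marrow. It fell by 1.05 ± 0.12 (adjusted p = 0.0114, limma), 2.06-fold. Gp6, the GPVI gene, stood at 6.01 and 5.77 in wild-type and at 5.54 and 5.46 in knockout bone marrow. Its difference of -0.39 ± 0.17 did not pass (adjusted p = 0.757, limma), with a 95% interval from -0.78 to 0.0086. The Gp6 probe set was dim on all 8 arrays, between 5.30 and 6.01 where the filter was set at 5, and the normalization used is known to compress differences of dim probe sets. Whether Gp6 fell less than Clec1b was not tested.

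Treml1, the activation marker of the alpha granule membrane, had the smallest p of the group. It stood at 8.76 and 8.45 in wild-type and at 7.43 and 7.54 in knockout bone marrow, with 0.92 between the nearest arrays. Treml1 fell by 1.12 ± 0.11 (adjusted p = 0.009, limma), 2.18-fold.

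The calls rested on few arrays. Leaving out wild-type replicate 1, knockout replicate 1 or knockout replicate 2 of bone marrow left 0 of the 7 genes called, and without wild-type replicate 2 there were 5; the median difference stayed between -1.27 and -0.96 with 1 array left out. A fit to the 4 bone marrow arrays alone called 0, and the 5 genes had adjusted p-values of 0.0754 to 0.113 (limma) at the same differences. The wild-type arrays differed from each other in 1 direction for all 7 genes, replicate 1 being higher by 0.24 to 0.49, where 57.1% of all genes were higher on that array.

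**Figure D2:**
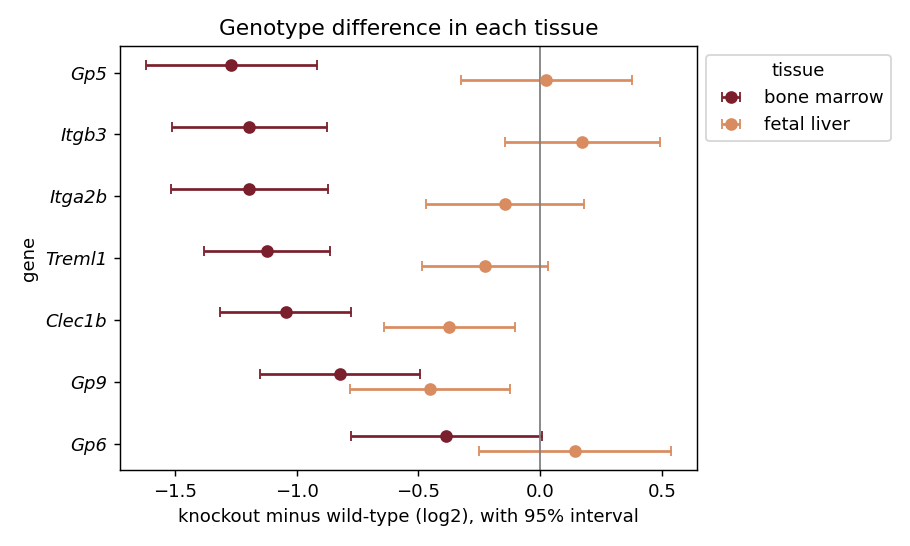
Difference between knockout and wild-type (x axis, log2) for each measured receptor gene (y axis) in bone marrow and in fetal liver, with 95% intervals from the fit to all 8 arrays. The bone marrow differences run from -1.27 for Gp5 to -0.39 for Gp6, and the fetal liver differences from -0.45 for Gp9 to 0.17 for Itgb3 (brighter probe set).

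Of 19 other adhesion and surface genes of the platelet that were tested, 2 were called lower, Gp1bb and Itga6, where 0.365% of all genes were. That share also stands beside the bone marrow counts of the lists that follow. Of the 19, 15 had negative differences and 9 an unadjusted p under 0.05 (limma), and the list median was -0.25. At that unadjusted level, 508 of all 13136 genes tested were lower and 378 higher. These numbers also stand beside the bone marrow lists that follow. Gp1bb encodes the beta chain joined to glycoprotein Ib alpha and so belongs to the same complex as Gp5 and Gp9. Gp1bb fell by 1.34 ± 0.15 (adjusted p = 0.0114, limma), from 9.34 to 7.99. Itga6, the alpha chain of a laminin receptor, fell by 0.77 ± 0.10 (adjusted p = 0.0219, limma). None of the 9 tested receptors for soluble agonists passed (limma; 5 at an unadjusted p under 0.05), and all 9 had negative differences, with a median of -0.41. Those with the smallest p were P2rx1, an ATP-gated channel, at -0.53 (adjusted p = 0.255, limma), and F2r, a thrombin receptor, at -0.50 (adjusted p = 0.286, limma).

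Ligands of the receptors are made by several cell types. Of 11 tested, 9 had negative differences, 4 had an unadjusted p under 0.05 (limma) and 3 were called lower. Vwf, made by megakaryocytes and endothelium, fell by 1.44 ± 0.16 (adjusted p = 0.0111, limma). The collagen chains fell too, Col1a1 by 1.22 ± 0.17 (adjusted p = 0.0303, limma) and Col1a2 by 0.76 ± 0.12 (adjusted p = 0.0491, limma). Thbs1, at -0.78, did not pass (adjusted p = 0.121, limma). The fibrinogen genes Fga, Fgb and Fgg, products of liver cells, had group means under 4 in bone marrow of both genotypes.

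Signalling components under the receptors, many of them shared with other blood cells, did not pass. The count was 0 of 28 tested (limma; 8 at an unadjusted p under 0.05), and their median was -0.11. The kinase genes Src and Prkcq had the smallest p, at -0.95 (adjusted p = 0.0518, limma) and -0.79 (adjusted p = 0.0604, limma). Syk, at -0.12, and Fcer1g, the Fc receptor chain used by GPVI, at 0.062, had wild-type levels of 10.05 and 11.44 in bone marrow. Transcription factors of the lineage also had 0 called among 16 (limma; 1 at an unadjusted p under 0.05), with a median of -0.029. The smallest p were those of Ets1, at -0.26 (adjusted p = 0.661, limma), and Etv6, at 0.20 (adjusted p = 0.75, limma). In that list Gata1 differed by 0.12, Gfi1b by -0.11, Nfe2 by -0.034, Runx1 by -0.017 and Fli1 by -0.32.

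Megakaryocyte genes that encode no surface receptor fell as well. Of 18 tested, 9 were called lower and all 18 had negative differences, with a median of -0.98. The 9 include Vwf, already given among the ligands, and Timp3, given below among the turnover genes. Tubb1, the platelet tubulin, fell by 1.46 and Alox12, the platelet lipoxygenase, by 1.41. Among 14 genes for shedding and turnover of surface receptors, Timp3, an inhibitor of the sheddases, fell by 0.90 ± 0.10 (adjusted p = 0.0135, limma) and the other 13 did not pass. The sheddase genes themselves differed by -0.025 (Adam17) and -0.049 (Adam10).

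The calls of genes outside the receptor list rested on single arrays too. Gp1bb, Itga6, Vwf, Col1a1, Col1a2, Timp3 and Slamf1, a progenitor marker, were each lost without wild-type replicate 1, knockout replicate 1 or knockout replicate 2 of bone marrow, and Tubb1 and Alox12 without either knockout replicate. With 1 array left out the highest adjusted p (limma) was 0.14 for Gp1bb, 0.205 for Itga6, 0.123 for Vwf, 0.245 for Col1a1, 0.437 for Col1a2, 0.154 for Timp3, 0.206 for Slamf1 and 0.113 for Tubb1 and Alox12. Col1a1 was also lost without either knockout fetal liver array, Col1a2 without wild-type bone marrow replicate 2 or either wild-type fetal liver array, and Slamf1 without any 1 of the fetal liver arrays. With the bone marrow arrays alone none of these 9 genes passed.

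Markers of other marrow cells were read beside these results. The summed intensity of 9 stromal markers was 4842 and 6076 on the wild-type and 3438 and 3522 on the knockout bone marrow arrays, all 9 being lower and 2 called. The 2 called were Col1a1 and Col1a2, already given among the ligands. Neutrophil markers summed to 139800 and 140100 in wild-type and 141200 and 143000 in knockout bone marrow, and 0 of the 10 passed, also at an unadjusted p under 0.05 (limma). None of 7 B cell, 6 erythroid, 9 macrophage, 9 endothelial, 5 mast cell and basophil or 4 osteoclast markers passed either (limma), with 3 macrophage and 2 endothelial markers at an unadjusted p under 0.05. Macrophage markers summed to 4859 and 5188 in wild-type and 5687 and 5798 in knockout, mast cell and basophil markers to 2353 and 2407 against 2646 and 2817, and osteoclast markers to 4244 and 4421 against 4482 and 4627. Erythroid markers summed to 47190 and 48550 against 49210 and 49680. Sums were lower in knockout for endothelial markers, at 439.2 and 505.9 against 411.9 and 432.5, with all 9 differences negative. They were also lower for B cell markers, at 10770 and 10880 against 9874 and 10500. Stem and progenitor markers summed to 945.5 and 1044 against 880.4 and 903.9. Of 9 stem and progenitor markers, 1 was called lower, Slamf1, by 1.04. Slamf1 is also known on megakaryocyte progenitors. The part of any of these cell types in the fall of the receptors was not tested.

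**Figure D3:**
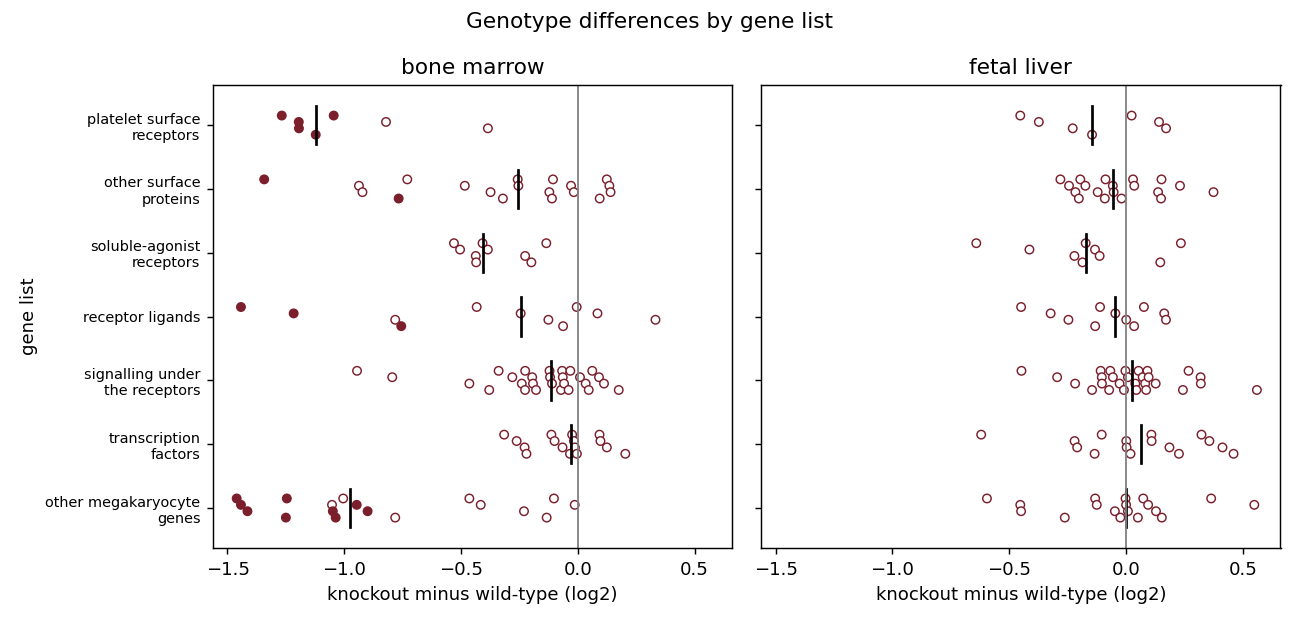
Difference between knockout and wild-type (x axis, log2) for each tested gene of 7 lists (y axis) in bone marrow and in fetal liver, with filled points for an adjusted p under 0.05, open points for the rest and a bar at the list median. In bone marrow the receptor list has its median at -1.12 and the list of other megakaryocyte genes at -0.98, and in fetal liver no point is filled.

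The second comparison set knockout against wild-type fetal liver, an organ that makes megakaryocytes before the marrow does. None of the 7 receptor genes passed the threshold (limma), where 0.198% of all genes tested were called lower, and 2 had an unadjusted p under 0.05. At that unadjusted level, 1853 of all 13136 genes tested were lower and 1037 higher. The median of the 7 was -0.15, with 4 negative and 3 positive differences. For 4 of them (Gp9, Itga2b, Clec1b and Treml1) both knockout arrays lay below both wild-type arrays, as did 30.2% of all genes.

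Gp9 stood at 9.13 and 8.94 in wild-type and at 8.42 and 8.75 in knockout fetal liver, a difference of -0.45 ± 0.14 (adjusted p = 0.137, limma; 95% interval -0.78 to -0.12 without adjustment). Clec1b stood at 9.87 and 9.71 in wild-type and at 9.34 and 9.49 in knockout fetal liver, a difference of -0.37 ± 0.12 (adjusted p = 0.137, limma). These were the 2 genes with an unadjusted p under 0.05. Treml1 was at 8.34 and 8.33 against 8.13 and 8.09, a difference of -0.23 ± 0.11, and Itga2b at 9.27 and 9.30 against 9.20 and 9.08, a difference of -0.15 ± 0.14.

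The other 3 genes had overlapping arrays in fetal liver. Gp5 stood at 7.74 and 7.72 in wild-type and at 7.79 and 7.71 in knockout fetal liver, a difference of 0.025 with a 95% interval from -0.33 to 0.38. Itgb3 stood at 8.62 and 8.78 in wild-type and at 9.01 and 8.74 in knockout, a difference of 0.17 with an interval from -0.15 to 0.49. Gp6 stood at 5.82 and 5.30 in wild-type and at 5.83 and 5.58 in knockout, a difference of 0.14 with an interval from -0.25 to 0.54. None of 19 other surface proteins, 9 soluble-agonist receptors, 11 ligands, 28 signalling genes, 16 transcription factors or 18 megakaryocyte genes passed in fetal liver (limma). In these lists, in order, 3, 1, 1, 5, 5 and 5 genes had an unadjusted p under 0.05. At that level, 1853 of all 13136 genes tested were lower and 1037 higher. Markers of sinusoidal endothelium, cells in which Clec1b is also known, summed over 9 genes to 2329 and 2412 in wild-type and 2734 and 2418 in knockout fetal liver.

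A test of the genotype effect between the tissues was made as an interaction, the fetal liver difference minus that in bone marrow. All 7 receptor genes had positive values, with a median of 0.89 against -0.038 for all genes, and none passed over all genes (limma), where 0.0685% were called positive. Of the 7, 5 had an unadjusted p under 0.05. At that unadjusted level, 805 of all 13136 genes tested were positive and 1251 negative. Itgb3 gave 1.37 ± 0.20 on its brighter probe set (adjusted p = 0.0625, limma), 0.21 on the dimmer one and 0.79 on the mean of both. Gp5 gave 1.29 ± 0.22 (adjusted p = 0.0925, limma) and Itga2b 1.05 ± 0.20 (adjusted p = 0.102, limma). Treml1 gave 0.89 ± 0.16 (adjusted p = 0.0975, limma) and Clec1b 0.67 ± 0.17 (adjusted p = 0.17, limma). Gp6, at 0.53 ± 0.24, and Gp9, at 0.37 ± 0.20, were the smallest. A variance trend with robust moderation called 4 of the 7. The interaction includes the fetal liver arrays, where sex runs with genotype.

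The levels of the receptor genes were also compared between the tissues within each genotype. These comparisons share arrays with those above, so the values are given side by side only. In wild-type mice tissue also runs with sex, as the marrow came from males and the fetal liver pools read as female. In wild-type mice all 7 genes were lower in fetal liver than in bone marrow and 4 fell past the threshold, Gp5, Itga2b, Itgb3 and Clec1b, where 26.8% of all genes were called lower and 39.2% higher. In knockout mice 6 of the 7 had positive differences and 2 were higher in fetal liver past the threshold, Itga2b and Treml1, where 36.6% of all genes were called higher and 27.1% lower. The counts of receptor genes are to be read against those large shares.

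**Figure D4:**
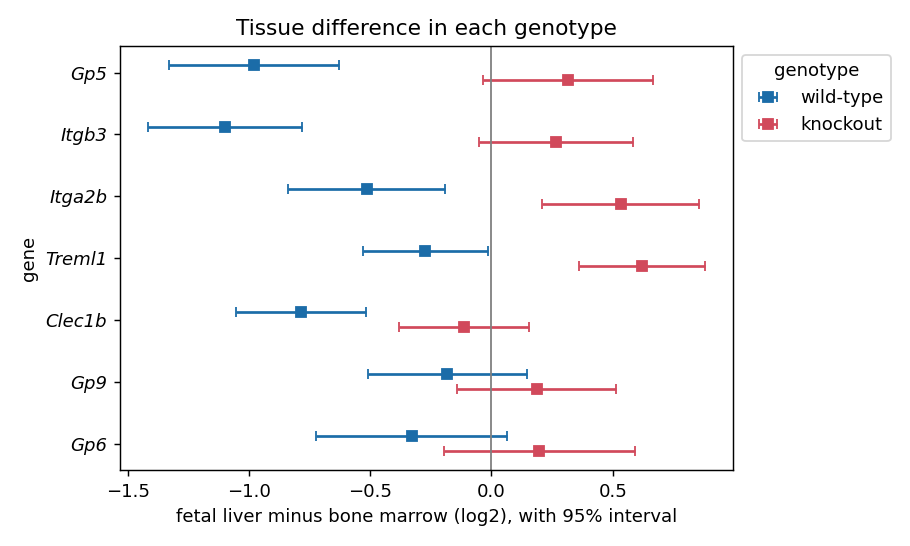
Difference between fetal liver and bone marrow (x axis, log2) for each measured receptor gene (y axis) in wild-type and in knockout mice, with 95% intervals from the fit to all 8 arrays. The wild-type differences run from -1.10 for Itgb3 (brighter probe set) to -0.18 for Gp9, and the knockout differences from -0.11 for Clec1b to 0.62 for Treml1.

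Itgb3 differed between wild-type tissues by -1.10 ± 0.14 on its brighter probe set (adjusted p = 0.000126, limma), by -0.074 on the dimmer one and by -0.59 on the mean of both. On the brighter probe set it differed by 0.27 ± 0.14 between knockout tissues (adjusted p = 0.124, limma). Gp5 differed by -0.98 ± 0.15 in wild-type (adjusted p = 0.000479, limma) and 0.31 ± 0.15 in knockout mice (adjusted p = 0.104, limma). For both genes the wild-type bone marrow arrays stood above all 6 others, and the other 3 group means lay within 0.31 of one another. Clec1b was lower in wild-type fetal liver by 0.79 ± 0.12 (adjusted p = 0.000353, limma) and differed by -0.11 ± 0.12 in knockout mice (adjusted p = 0.423, limma). Its order of levels was wild-type bone marrow, at 10.57, then wild-type fetal liver, at 9.79, knockout bone marrow, at 9.53, and knockout fetal liver, at 9.41. The difference between the last 2 did not pass.

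For Itga2b and Treml1 the knockout bone marrow stood apart as the lowest group. Itga2b ran from 9.80 in wild-type bone marrow through 9.29 and 9.14 in wild-type and knockout fetal liver to 8.61 in knockout bone marrow. It differed between tissues by -0.51 ± 0.14 in wild-type (adjusted p = 0.011, limma) and by 0.53 ± 0.14 in knockout mice (adjusted p = 0.00957, limma), and the fetal liver genotypes did not differ past the threshold. Without wild-type bone marrow replicate 1 the Itga2b difference in wild-type was -0.28 and not called (adjusted p = 0.0794, limma). The call of Itga2b in knockout mice was lost without knockout fetal liver replicate 1 (0.47, adjusted p = 0.0518, limma) and with the replicate number as a block (adjusted p = 0.0578, limma). Treml1 ran from 8.61 in wild-type bone marrow through 8.34 and 8.11 in fetal liver to 7.48 in knockout bone marrow. It differed by -0.27 ± 0.11 in wild-type (adjusted p = 0.0626, limma) and by 0.62 ± 0.11 in knockout mice (adjusted p = 0.00127, limma). The wild-type value of Treml1 was -0.12 without wild-type bone marrow replicate 1 (adjusted p = 0.434, limma) and -0.42 without replicate 2, where it passed (adjusted p = 0.0176, limma). In Gp9 the arrays of the tissues overlapped within wild-type mice. Gp9, at -0.18 and 0.19, and Gp6, at -0.33 and 0.20, did not pass in either genotype.

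A sign of RNA quality differed between the tissues. The log2 gap between the 3′ and 5′ control probe sets of Gapdh was 0.48 to 0.78 on bone marrow and 1.33 to 1.86 on fetal liver arrays, and its part in the tissue differences was not tested. Between genotypes in bone marrow that gap was 0.78 and 0.56 in wild-type against 0.73 and 0.48 in knockout.

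Across the 8 arrays the 7 receptor genes varied together to different degrees. Pairwise Pearson correlations ran from 0.486, for Gp6 with Gp9, to 0.97, for Itga2b with Treml1, with a median of 0.825. The points share tissues, genotypes and arrays, so this is a description. The genes outside the list whose levels were most like the mean standardised level of the 7 over the 8 arrays were Myl9 (r = 0.976), Vwf (r = 0.96), Ro60 (r = 0.959), Mfap3l (r = 0.934) and Pde5a (r = 0.934). After each array was centred on its tissue mean they were Fhl1 (r = 0.997), Myl9 (r = 0.992), Kalrn (r = 0.99), Slamf1 (r = 0.988) and Nbea (r = 0.987). Myl9, a myosin light chain gene, is the only gene in both sets of 5. Its group means were 8.61 (wild-type) and 7.36 (knockout) for bone marrow, and 7.65 and 7.60 for fetal liver.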

How the data were processed

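Total RNA of bone marrow and fetal liver was measured on Affymetrix arrays. The authors deposited 1 linear intensity per probe set and array, made with RMA per the submitters' processing notes, with version and annotation not given in the sources used here. RMA evens out the arrays and compresses dim differences. Here log2 of each intensity was taken, and for each gene the probe set with the highest mean among the 34958 assigned to 1 gene was kept. Genes at 5 or more on at least 2 arrays were tested (13136) in R 4.3.3 with limma 3.58.1. The model had 1 mean per group, moderated variances (4 residual and 4.48 prior degrees of freedom) and two-sided Benjamini-Hochberg adjusted p-values over all genes tested, at a threshold of 0.05. An exact permutation test of 2 against 2 arrays cannot go below p = 0.333 and was not used. The fit was tried on simulated data with independent noise of equal spread in all groups for each gene. That setting cannot show how the fit behaves where the spread differs between groups. Members and lists were chosen with earlier results of these data known. Named genes were the members, called members of each list (at most 4 per direction, or the 2 with the smallest p) and the 5 genes most like the members on each scale; Syk, Fcer1g, Gata1, Gfi1b, Nfe2, Runx1, Fli1, Adam10, Adam17, Fga, Fgb and Fgg were named after their values were seen.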

Additional observations from a re-analysis of the deposited data

How the results depend on the processing

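The bone marrow fall kept its direction in all 7 receptor genes under every setting tried, with 4 to 6 genes called when all 8 arrays were fitted at a threshold of 0.05. It lost all calls, 0 of 7, with only the arrays of the groups compared, and had 0 to 5 with 1 array left out. With the replicate number as a block, which the labels do not tie to shared animals (correlation of same-numbered deviations -0.0036 in bone marrow and -0.062 in fetal liver), 4 were called in bone marrow and 1 instead of 2 in the knockout tissue comparison. That comparison gave 1 to 3 with 1 array left out, 1 being without knockout fetal liver replicate 1. Calls of the interaction were 0 in the main analysis, 1 after quantile normalization again, 4 with a variance trend and robust moderation, 3 at a threshold of 0.1, and 0 to 2 with 1 array left out, 2 being without wild-type bone marrow replicate 2 and 1 without knockout fetal liver replicate 2. In fetal liver, 0 were called under every setting. Differences near 0 there changed sign: Gp5 was -0.014 with arrays centred on their median and -0.016 to 0.065 with 1 array left out, and Gp6 was -0.12 to 0.40 with 1 array left out, negative without wild-type replicate 2. The cause was not tested. The wild-type tissue comparison kept 3 to 5 calls. Gp6 and the second Itgb3 probe set were dim and near the filter of 5, though lower levels were measured, as for Fga with a mean of 2.98 in wild-type bone marrow. Whether their dimness hid a fall of the size seen in the other genes was not tested.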
